A study of Mus musculus with 4 samples.

Results

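The MHC class II pathway genes were followed through LSK-SLAM cells, a sorted population enriched for haematopoietic stem cells (HSCs) that carries Sca1, cKit and CD150 and lacks lineage markers and CD48. The 8 genes, taken by name, were *H2-Aa*, *H2-Ab1*, *H2-Eb1*, *H2-DMa*, *H2-DMb1*, *H2-DMb2*, *Cd74* and *Ciita*, and all 8 had a row among the 23906 gene symbols of each sample. The cells came from BRE-GFP transgenic mice on a C57BL/6 background, in which GFP is made when BMP signals through Smad1/5 to a BMP responsive element. They were sorted into GFP+ (BMP-activated) and GFP- (non-BMP-activated) fractions. Fetal liver (FL) was taken from embryos at day 14 and bone marrow (BM) from adults, and each of the 4 conditions had 1 library. By the study's methods, the lineage stain held an antibody against the myeloid marker CD11b for adult BM only, and BM cells were fractionated on Ficoll. The cells of both tissues were thus not prepared and gated in the same way. The transgene was carried by the GFP- cells too, the mice shown in the study were of a single transgenic line, line 1, and how many embryos or adult mice were pooled is not given in the sources used here. No condition had a replicate, so no error can be given for a level or for a ratio between single libraries.

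MHC class II molecules are heterodimers of an alpha and a beta chain on the surface of B cells, dendritic cells and macrophages, where they show peptides from engulfed proteins to CD4 T cells. In the endoplasmic reticulum the new dimer is held by the invariant chain CD74, and in endosomes H2-DM exchanges the remnant of CD74 for an antigenic peptide. Most of the pathway is switched on together by the co-activator CIITA, which has no DNA-binding domain that reads these promoters itself and is recruited by the RFX complex, CREB and NF-Y bound to the conserved X and Y boxes.

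The boxes are shown here because class II promoters are known for them. RefSeq promoter windows of GRCm38.p6, 250 bases before to 50 after a transcription start, were present for 5 of the 8 genes (*H2-Aa*, *H2-Eb1*, *H2-DMa*, *H2-DMb1* and *H2-DMb2*) and for the related *H2-Oa*, *H2-Ob* and *H2-Eb2*. The stretches below run 5′ to 3′ on the strand of the gene. Capitals mark the 8 letters of an X-like element (CNNNNAAC) and the 7 letters of the Y box (TGATTGG, an inverted CCAAT box).
*H2-Aa*, chr17:34287847-34287927, minus strand: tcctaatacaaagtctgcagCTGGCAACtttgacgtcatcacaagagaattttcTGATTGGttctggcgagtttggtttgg
*H2-Eb1*, chr17:34305753-34305832, plus strand: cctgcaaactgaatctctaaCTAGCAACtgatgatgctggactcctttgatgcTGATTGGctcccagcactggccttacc
*H2-DMb1*, chr17:34153074-34153154, plus strand: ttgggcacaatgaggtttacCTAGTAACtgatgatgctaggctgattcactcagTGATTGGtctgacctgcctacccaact
*H2-DMb2*, chr17:34145103-34145183, plus strand: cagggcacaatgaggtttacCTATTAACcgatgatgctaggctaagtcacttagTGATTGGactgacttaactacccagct
*H2-Ob*, chr17:34238795-34238872, plus strand: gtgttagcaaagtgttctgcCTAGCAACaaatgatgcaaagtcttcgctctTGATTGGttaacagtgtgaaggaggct

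The gap between the boxes was 26 bases in *H2-Aa*, *H2-DMb1* and *H2-DMb2*, 25 in *H2-Eb1* and 23 in *H2-Ob*, and the Y box began 50 to 92 bases before the start in these 5 genes. The pair, with 15 to 35 bases between its parts and read on both strands, was in 7 of the 9 windows of these 8 class II genes and in 0.493% of all 32851 windows. TGATTGG alone was in 7.82% of all windows. The 2 windows without a pair were those of *H2-DMa*, which lie at separate annotated starts (34122582-34122881 and 34125268-34125567). The RefSeq gene begins at base 34119693, which neither window covers, so a pair before that start was not looked for. The letters were set after these windows had been read, so the shares describe the sequences and test nothing. The CREB palindrome TGACGTCA was present in the window of *H2-Aa* among these genes and in 1.79% of all windows. *H2-Ab1*, *Cd74* and *Ciita* had no window in the table. In the same build *H2-DMa*, *H2-DMb2*, *H2-DMb1*, *H2-Ab1*, *H2-Aa* and *H2-Eb1* lie in this order on chromosome 17 from base 34119693 to 34316674. They are not all neighbours, since *H2-Ob* lies between *H2-DMb1* and *H2-Ab1*. *Ciita* lies on chromosome 16 and *Cd74* on chromosome 18.

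Facts of the libraries bear on every value below. FPKM, a fragment count scaled to transcript length and to library size, was above 0 for 12372 to 17345 genes per library and summed to 541453 to 1000848, highest in BM GFP+ cells. A listed 0 need not mean absence, since 1 to 7 of 97 ribosomal protein rows were also at 0 in each library. The BM libraries held high levels of genes of mature cells. *S100a8*, a neutrophil calcium-binding protein, was at 25286 FPKM in the GFP+ and 3189 in the GFP- library of the BM against 9.78 to 25.3 in the FL, and the summed level of 7 neutrophil markers was 58950 and 14376 against 154 to 354. Most stem cell markers (8 of 10) were over 2 times lower in BM GFP+ than in BM GFP- cells. Of the 12385 genes with at least 1 FPKM in either of these libraries, 19.6% were. *Procr*, the endothelial protein C receptor of HSCs, was listed at 0 there and at 60.8 in the GFP- fraction, against 106 and 113 in the FL, and *Kit*, a receptor used in the sort, was at 22.2 and 76.6 against 102 and 150. *Ly6a*, which codes for Sca1 and so also belongs to the sort, was at 286 and 146 against 19.7 and 46.3 and was the 1 stem cell marker that limma called for tissue (adjusted P = 0.0318). In bulk libraries, more cells of a type and more RNA per cell cannot be told apart.

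The class II genes were low in FL and high in BM LSK-SLAM cells, where *Cd74*, *H2-Aa* and *H2-Ab1* ranked among the most abundant transcripts. Together the 8 genes made up 0.00385% (GFP+) and 0.00500% (GFP-) of the FPKM sum of the FL libraries, but 1.60% (GFP+) and 0.662% (GFP-) of that of the BM libraries. Wherever 4 values are listed below without labels, the FL comes first and, within a tissue, the GFP+ fraction. All 8 were at 1 FPKM or more in each BM library, and 3 of 8 (*H2-DMa*, *H2-DMb2* and *Cd74*) in each FL library.

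**Figure D1:**
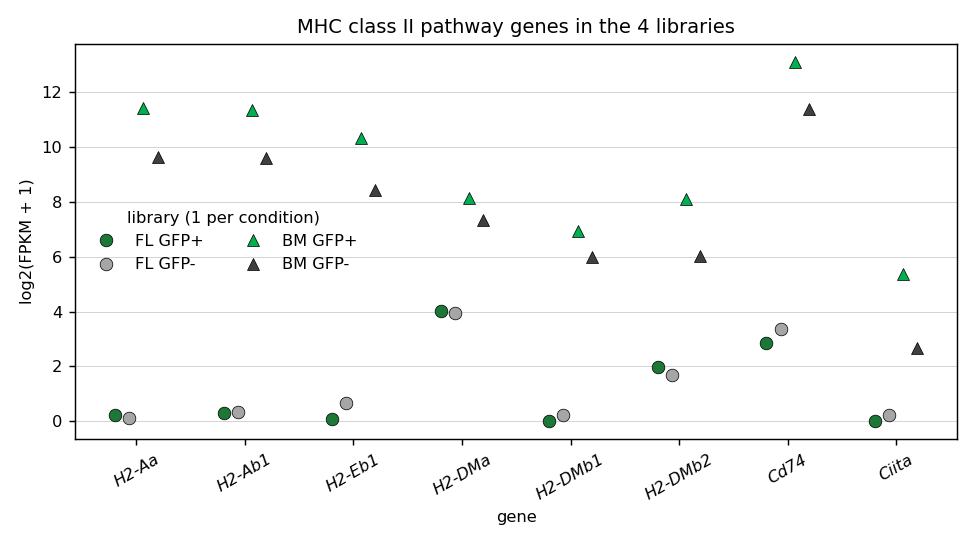
Level of each of the 8 genes, as log2(FPKM + 1), in the 4 libraries (circles FL, triangles BM, green GFP+, grey FL GFP-, black BM GFP-; 1 library per condition, so no error bars). Every triangle lies above both circles of its gene, and *H2-DMa*, *H2-DMb2* and *Cd74* are the genes whose circles lie clearly above 0.

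The classical chains are the peptide-presenting molecules themselves. *H2-Aa*, the I-A alpha chain, had 0.179, 0.0741, 2720.5 and 794 FPKM. *H2-Ab1*, its beta chain partner, had 0.232, 0.267, 2579.8 and 764 FPKM. The partners thus differed little from each other within a BM library, with an *H2-Aa* to *H2-Ab1* ratio of 1.05 in GFP+ and 1.04 in GFP- cells. *H2-Eb1*, the I-E beta chain, had 0.0528, 0.572, 1290.5 and 343 FPKM. *H2-Ea-ps*, the I-E alpha gene that is a pseudogene in C57BL/6 mice, was listed at 0 in all 4 libraries. The FL values of the 3 classical genes were all under 1 FPKM, and no fold against them is given. The genes *H2-Aa* and *H2-Ab1* overlap at their 3′ ends in GENCODE vM1 but not in RefSeq, and the strand of the reads is not stated, so a few reads may count for either.

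*Cd74*, the invariant chain, was the most abundant of the 8 genes in both BM libraries. It had 6.17, 9.19, 8726 and 2638 FPKM. Ranked over all symbols it stood at place 8 in the GFP+ and place 23 in the GFP- library of the BM, where *H2-Aa* held places 47 and 137. It shared its values with 1 other symbol, the microRNA gene *Mir5107*, so reads of that gene were not separated from it. The ratio of *Cd74* to *H2-Aa* was 3.21 and 3.32 in these libraries. In the FL, where *H2-Aa* was near 0, *Cd74* was still detected, at a level 287-fold lower in GFP- cells and 1414-fold lower in GFP+ cells than in the matching BM library.

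The H2-DM chains edit the peptide cargo. *H2-DMa*, the only alpha chain of H2-DM, was the class II gene with the highest level in the FL, with 15.3, 14.5, 282 and 159 FPKM. *H2-DMb1* was listed at 0 in FL GFP+ cells and at 0.172 in FL GFP- cells, with 120 and 61.7 FPKM in the BM. *H2-DMb2* had 2.93, 2.18, 269.7 and 63.3 FPKM. In the FL libraries the alpha chain was thus above both beta genes, with *H2-DMb1* at or near 0. The beta genes cannot be cleanly separated: over 786 coding bases they were 95.9% identical, and 47.9% of all 50-base windows of *H2-DMb1* also occurred in *H2-DMb2*. The *H2-DMb2* to *H2-DMb1* ratio was 2.25 in the GFP+ and 1.03 in the GFP- fraction of the BM, and how the reads that fit both genes were divided in each library is not known.

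*Ciita*, the co-activator, had the lowest level of the 8 genes in both BM libraries. It was listed at 0 in FL GFP+ cells and had 0.166, 40.3 and 5.39 FPKM in the others. Its ratio between the BM libraries was the largest of the 8 genes.

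The comparison of tissues was made within each fraction. In GFP+ cells all 8 genes had over 2 times the FPKM in BM that they had in FL, where 33.6% of the 12120 genes tested (at least 1 FPKM in 1 of the compared libraries) did so. In GFP- cells it was again 8 of 8, where 18.6% of 12703 genes did so. The median difference on the log2(FPKM + 1) scale over the 8 genes was 8.58 in GFP+ and 6.76 in GFP- cells, against 0.15 and 0.04 over all genes tested. Adding 1 FPKM before the logarithm understates the change of low genes. In both fractions the differences of *H2-Aa*, *H2-Ab1*, *H2-Eb1* and *Cd74* were above those of 99.7% or more of all genes tested.

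The error of the tissue effect is what remained after tissue and GFP were fitted as additive terms, shrunk towards the variance of all genes. Fitted with limma to log2(FPKM + 1) of 11707 genes, with GFP as a second term, 7 of the 8 genes were called higher in BM at an adjusted P under 0.05, where 2.17% of all genes were. *H2-Aa* differed by 10.35 ± 0.52 (log2 units ± SE, adjusted P = 7.23e-05), *H2-Ab1* by 10.13 ± 0.53 (adjusted P = 7.23e-05) and *Cd74* by 9.13 ± 0.49 (adjusted P = 7.23e-05). *H2-Eb1* differed by 9.02 ± 0.66 (adjusted P = 0.000258). The H2-DM genes differed by 3.74 ± 0.41 for *H2-DMa* (adjusted P = 0.00255), 6.33 ± 0.84 for *H2-DMb1* (adjusted P = 0.00657) and 5.22 ± 0.65 for *H2-DMb2* (adjusted P = 0.00449). *Ciita* had a difference of 3.91 ± 1.003 and was not called (adjusted P = 0.0942). These calls have 1 residual degree of freedom per gene and rest on variance shared across genes. Without limma's trend no gene was called, of the 8 or of any others (0 genes), where 1581 genes, all 8 class II genes among them, had an unadjusted P under 0.05. With 3 libraries limma could be fitted only with tissue as the single term, a form that called 7 of the 8 with all 4 libraries. In that form limma called 4 of the 8 without FL GFP+ cells, 5 without FL GFP- cells and none (0 genes of all) without either BM library, where 924 (without GFP+) and 1784 (without GFP-) genes had an unadjusted P under 0.05, all 8 among them.

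**Figure D2:**
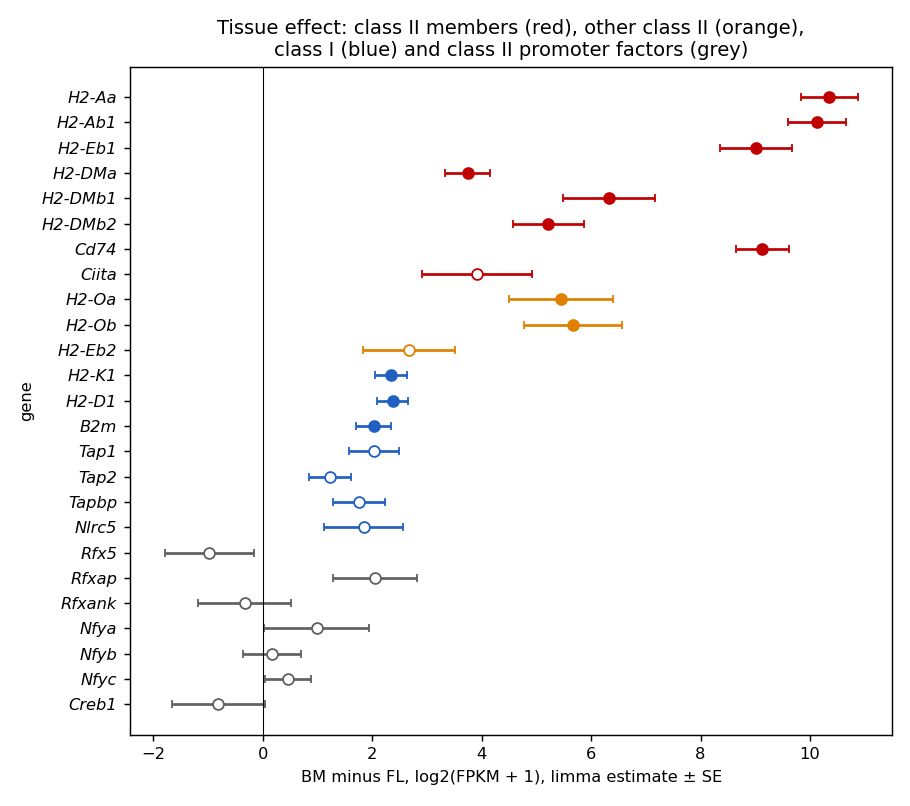
BM minus FL difference in log2(FPKM + 1) from limma, with its standard error as the bar, for the 8 class II genes (red), other class II genes (orange), class I genes (blue) and class II promoter factors (grey). Filled points passed an adjusted P of 0.05. The red points lie between 3.74 and 10.35, the blue between 1.23 and 2.37, and the grey between -0.98 and 2.05.

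Other class II genes were also higher in BM. *H2-Oa* and *H2-Ob*, the chains of H2-DO, which restrains H2-DM in B cells, had 208 and 151 FPKM in GFP+ cells of the BM and 77.3 and 65.4 in its GFP- cells. Both were called higher in BM by limma, by 5.45 ± 0.94 (adjusted P = 0.0218) and 5.67 ± 0.89 (adjusted P = 0.0145). In the FL they were at 6.73 and 2.91 FPKM in GFP- cells, and in GFP+ cells *H2-Oa* was at 0.108 while *H2-Ob* was listed at 0. *H2-Eb2*, a relative of *H2-Eb1* with 78.0% coding identity, had 12.7 and 2.03 FPKM in the BM and was not called (adjusted P = 0.154 by limma).

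The DNA-binding factors of the X and Y boxes showed no tissue difference called by limma. None of the 7 (0 of 7: *Rfx5*, *Rfxap*, *Rfxank*, *Nfya*, *Nfyb*, *Nfyc* and *Creb1*) was called for tissue by limma, and 1 of 7 (*Rfxap*) had an unadjusted P under 0.05. By the 2-fold rule, 2 of 7 were higher and 1 lower in BM in GFP+ cells, where 33.6% and 25.1% of all genes tested were. In GFP- cells 1 of 7 was higher and 1 lower, where 18.6% and 19.3% were. *Rfx5*, the DNA-binding subunit of RFX, had 13.2, 13.3, 8.20 and 4.72 FPKM, a limma difference of -0.98 ± 0.82 (adjusted P = 0.602). *Nfyb*, a histone-fold subunit of NF-Y, had 25.7, 22.6, 35.5 and 20.7 FPKM, and the tissues overlapped. *Rfxap*, which holds RFX together, was listed at 0 in FL GFP+ cells and had 0.538, 4.68 and 3.67 FPKM in the others. *Nfya*, another subunit of NF-Y, had 1.37, 2.60, 9.68 and 2.14 FPKM. In the FL, then, transcripts of *Rfx5*, *Rfxank*, *Nfyb*, *Nfyc* and *Creb1* were at 6.78 FPKM or more in each library. There *Nfya* was at 2.60 FPKM or less, and *Rfxap*, like *Ciita*, was under 1 FPKM. Whether any of these levels limits the class II genes was not tested.

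Of 12 genes that act upstream of *Ciita*, 1 was called for tissue by limma. This was *Irf8*, a transcription factor of dendritic cells, B cells and monocytes, with 15.1, 4.79, 319.97 and 132 FPKM (4.42 ± 0.43, adjusted P = 0.00124). *Pax5*, the B-lineage commitment factor, was listed at 0 in both FL libraries and had 71.6 and 3.32 FPKM in the BM (adjusted P = 0.108 by limma). *Ifngr1*, a chain of the interferon-gamma receptor, had 69.9, 99.7, 210.1 and 186 FPKM and was not called by limma (adjusted P = 0.118).

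Among 8 genes of the endosomal route that feeds class II molecules, 2 were called higher in BM by limma. *Ctss*, the protease that trims the invariant chain in antigen-presenting cells, was listed at 0 in FL GFP+ cells, had 1.86 FPKM in FL GFP- cells, and reached 668 and 164 in the BM (7.62 ± 0.82, adjusted P = 0.00230). *Ifi30*, a lysosomal thiol reductase, had 6.36, 9.46, 189.9 and 49.7 FPKM (adjusted P = 0.0299). *Ctsd*, a protease of lysosomes in most cells, had 236, 141, 234 and 231 FPKM, a range in which the tissues overlap. Of 6 genes of co-stimulation, *Cd40* was called higher in BM (adjusted P = 0.0493 by limma), at 97.2 and 10.02 FPKM in the BM and listed at 0 in both FL libraries, whereas *Cd80* was listed at 0 in all 4. *Pdcd1lg2* and *Cd274*, which code for ligands of the inhibitory receptor PD-1, had 18.9, 1.88, 1.57 and 2.82 FPKM and 8.50, 6.35, 3.04 and 7.05 FPKM, and neither was called by limma (adjusted P = 0.601 and 0.817).

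*B2m*, the light chain of MHC class I, had 781, 885, 4033 and 2856 FPKM, a limma difference of 2.03 ± 0.33 (adjusted P = 0.0157). Of 7 class I genes, 3 were called higher in BM (*H2-K1*, *H2-D1* and *B2m*), and 0 of 7 had over 2 times the FPKM of one BM fraction in the other. Between tissues, 7 of 7 had over 2 times the FPKM in BM in GFP+ cells and 5 of 7 in GFP- cells. Over all genes tested these shares were 33.6% and 18.6%. Whether the class II difference exceeded that of class I was not tested.

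Between the GFP fractions of the BM, 6 of the 8 class II genes had over 2 times the FPKM in GFP+ cells, where 21.1% of the 12385 genes tested did so. The FPKM ratio of GFP+ to GFP- cells was 3.43 for *H2-Aa*, 3.38 for *H2-Ab1*, 3.76 for *H2-Eb1* and 3.31 for *Cd74*. It was 4.26 for *H2-DMb2* and 7.48 for *Ciita*. The genes under the threshold were *H2-DMa*, with a ratio of 1.77, and *H2-DMb1*, with 1.94. The median difference over the 8 was 1.76 on the log2(FPKM + 1) scale, against 0.12 over all genes tested. On that scale *Ciita*, at 2.69, was above 98.7% of the genes tested and *H2-DMa*, at 0.82, above 78.0%. With 1 library a fraction, these ratios have no error. Scaling all libraries to equal FPKM totals left the count at 6 of 8, while the share of calls that were higher in GFP+ cells over all genes went from 51.8% to 32.2%.

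In the FL none of the 8 class II genes that could be compared differed by over 2 times between the fractions (0 of 3 in either direction). Over all 12134 genes tested, 17.9% were past the threshold higher and 26.8% lower in GFP+ cells. The FPKM ratio of GFP+ to GFP- cells was 1.06 for *H2-DMa*, 1.34 for *H2-DMb2* and 0.671 for *Cd74*. The other 5 of the 8 genes were under 1 FPKM in both libraries and were not compared. Outside the 8, *H2-Oa* and *H2-Ob* were both past the threshold in the FL and lower in GFP+ cells. *H2-Oa* had 0.108 FPKM in GFP+ against 6.73 in GFP- cells, and *H2-Ob* was listed at 0 against 2.91. Over both tissues, limma called none of the 8 for GFP (0 genes, with 0 at an unadjusted P under 0.05), where 0.111% of all genes were called. Whether the GFP difference itself changed between tissues was not tested.

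Markers of other cell types moved with the class II genes, and their part in the result was not tested. All 10 of 10 B cell markers were over 2 times higher in BM than in FL in each fraction, and all 10 were over 2 times higher in BM GFP+ than in BM GFP- cells. Their summed level was 96.6, 43.4, 3977 and 1069 FPKM, and limma called 8 of 10 higher in BM. *Cd79a*, the immunoglobulin alpha chain of the B cell receptor, had 7.16, 0.766, 1063 and 265 FPKM. The ratio between the BM fractions ran over the list from 2.37 for *Cd22*, an inhibitory B cell lectin, to 21.5 for *Pax5*, and over the class II genes from 1.77 to 7.48. *Ms4a1*, *Blk*, *Ebf1*, *Pax5*, *Fcrla* and *Vpreb3* were listed at 0 in FL GFP+ cells, and none of the 10 was at 0 in the BM.

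Dendritic cell markers were much lower in sum. Their 9 genes added up to 5.10, 11.6, 146 and 30.4 FPKM, and 5 of the 6 that could be compared were over 2 times higher in BM GFP+ than in BM GFP- cells. *Siglech*, a receptor of plasmacytoid dendritic cells, made up most of this, with 98.0 and 21.6 FPKM in the BM. Of the 4 genes of the list in the limma fit it was the 1 called for tissue (adjusted P = 0.0225). *Zbtb46* and *Batf3*, transcription factors of classical dendritic cells, were listed at 0 in BM GFP+ cells, and *Xcr1*, a chemokine receptor, was at 0.0721. These 2 factors did not move with the class II genes between tissues. *Zbtb46* had 11.3 FPKM in FL GFP- against 0.673 in BM GFP- cells, and *Batf3* had 4.90 in FL GFP+ cells. Between tissues, 6 of 7 genes compared were over 2 times higher in BM in GFP+ cells and 1 lower. In GFP- cells it was 4 of 5, with 1 lower. Others of the list were higher in BM GFP+ than in BM GFP- cells, at 7.68 against 0.217 FPKM for *Itgax*, 14.02 against 3.11 for *Cd209a* and 4.18 against 0.434 for *Clec9a*.

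The 10 macrophage markers summed to 63.7, 41.4, 295 and 104 FPKM, and 8 of 9 compared were over 2 times higher in BM GFP+ than in BM GFP- cells. *C1qb*, a complement subunit made by macrophages, had 0.266, 7.18, 61.7 and 18.2 FPKM. *Mertk* was listed at 0 in both GFP+ libraries. Within the FL the list was split: of 9 markers compared, 5 were over 2 times higher in the GFP+ library and 4 lower. *Csf1r*, the M-CSF receptor, had 9.56, 0.0177, 27.6 and 19.4 FPKM. *Cd68* went the other way in the FL, at 0.157, 17.8, 96.5 and 34.3 FPKM. Of the 8 macrophage markers in the limma fit none was called for tissue (0 genes, with 4 at an unadjusted P under 0.05).

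**Figure D3:**
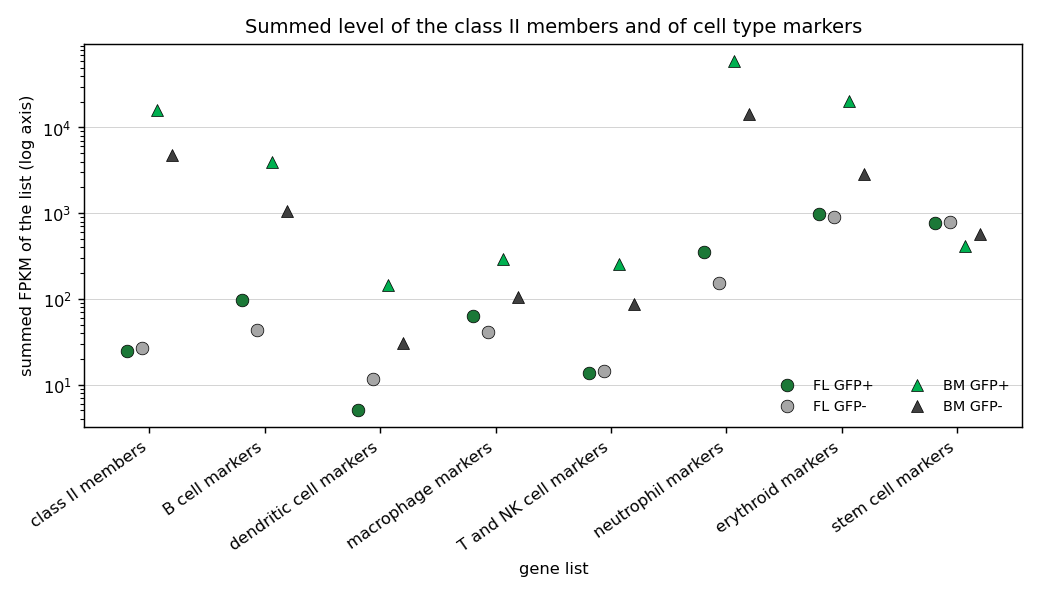
Summed FPKM of the class II genes and of each marker list in the 4 libraries, on a log axis (circles FL, triangles BM; 1 library per condition). The B cell list sums to 3977 and 1069 in the BM libraries and the class II genes to 16028 and 4829, while the stem cell list is lower in the BM than in the FL.

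Lineages that carry no class II molecules moved as well. The 7 T and NK cell markers summed to 13.8, 14.3, 254 and 87.5 FPKM, and limma called 2 of 7 higher in BM (*Cd3g* and *Cd2*). The 7 erythroid markers summed to 992, 907, 20421 and 2842 FPKM, and limma called 3 of 7. All 7 of the neutrophil markers were called higher in BM by limma, and 5 of 7 were over 2 times higher in BM GFP+ than in BM GFP- cells. In GFP- cells, the B cell markers were over 2 times higher in BM for 10 of 10, the neutrophil markers for 7 of 7 and the stem cell markers for 2 of 10, with 2 of 10 over 2 times lower.

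**Figure D4:**
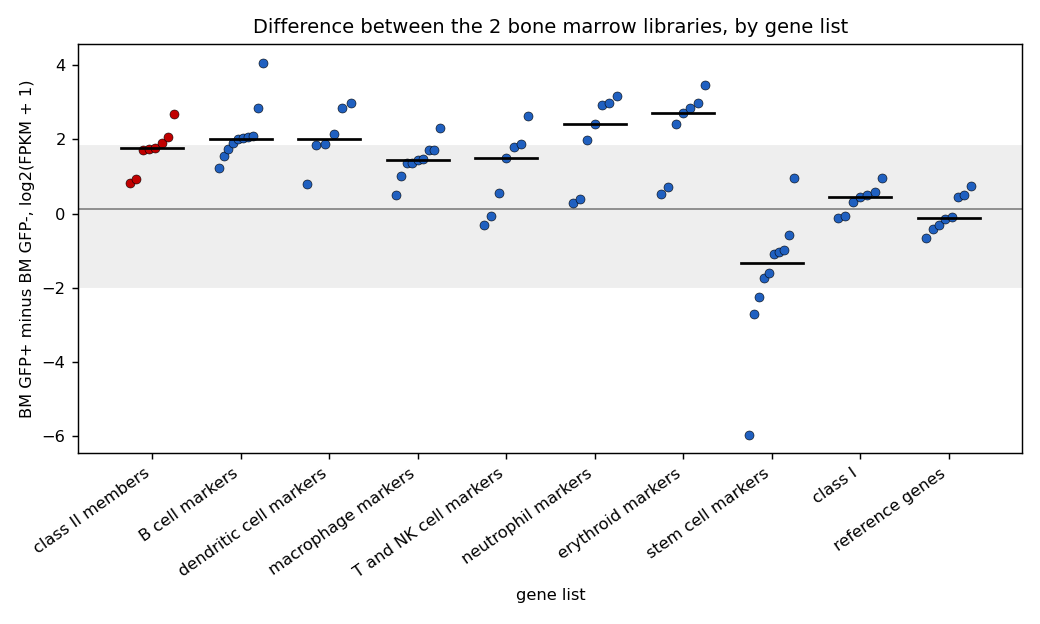
BM GFP+ minus BM GFP- difference in log2(FPKM + 1) for each gene of each list with at least 1 FPKM in 1 of the BM libraries (points) and the median of the list (black line). The grey line is the median over all 12385 genes tested and the grey band their 5th to 95th percentile. The class II genes have a median of 1.76, the B cell markers 2.02, the neutrophil markers 2.41 and the stem cell markers -1.34.

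The genes with the most similar profile were sought among 10048 genes by the root mean square difference of centred log2(FPKM + 1) over the 4 libraries from the mean profile of *H2-Aa*, *H2-Ab1*, *H2-Eb1* and *Cd74*. The nearest 10 were *Lcn2*, *Retnlg*, *Ly6d*, *Ltf*, *Ngp*, *Camp*, *Chil3*, *Faim3*, *Slpi* and *S100a8*, at distances of 0.27 to 0.75 log2 units. *Ly6d*, a surface marker of B-lineage progenitors and B cells, was listed at 0 in both FL libraries and had 1016 and 210.1 FPKM in the BM. *Lcn2*, a secondary granule protein of neutrophils, had 0.104 FPKM in FL GFP+ cells, was listed at 0 in FL GFP- cells and had 1785 and 331 in the BM. Most of the others are genes of neutrophils, and the ratio between the BM fractions reached 8.97 for *Camp*, a neutrophil antimicrobial peptide. By the same measure the distance was 1.69 for *H2-DMb1*, 2.23 for *H2-DMb2*, 2.89 for *Ciita* and 2.98 for *H2-DMa*, so each of these class II genes lay farther from the mean profile than the 10 genes named. The measure has 4 points and is a description.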

How the data were processed

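RNA of sorted LSK-SLAM cells was made into SMARTer libraries and sequenced on a HiSeq2000. The authors aligned the reads (TopHat, Bowtie) and deposited FPKM per gene from Cufflinks 2.2.1, corrected for fragment bias and multi-mapped reads in Cuffquant and scaled across the libraries in Cuffnorm (geometric library size). The methods name NCBI37/mm9 and the submitters' processing notes mm10, and the files hold no coordinates. Positions and promoter sequences here are from RefSeq GRCm38.p6 and coding identity from GENCODE vM1. The files used here hold FPKM and no read counts per gene, so no counting interval is given.

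Each library was read by its label. Genes with at least 1 FPKM in a compared library were counted as past the threshold when FPKM in one library exceeded 2 times that in the other. The factor is that of the study, which applied it to GFP fractions and required it in both tissues; here each comparison was counted alone. Differences are on log2(FPKM + 1), a scale that understates changes of low genes. limma 3.58.1 in R 4.3.3 (lmFit, eBayes with trend, Benjamini-Hochberg adjustment over all genes) was fitted with tissue and GFP as additive terms to genes with at least 1 FPKM in at least 2 libraries. Its P values take the fractions of a tissue as if they were replicates, and any GFP effect that differs between tissues counts as error. Other steps used Python 3.11.15, numpy 2.4.6, pandas 2.3.3 and matplotlib 3.10.9, and the code was tested on simulated data. The 8 genes and the lists were chosen with earlier results of these data known. Named genes are the 8, genes of the lists, and the 10 nearest profiles (at least 5 FPKM in 1 library, microRNA and small nucleolar RNA genes left out). *Adgre1* was read from the row *Emr1*, *H2-Ea* from *H2-Ea-ps*, and *Ly6g* had no row. Alternatives were other fold thresholds, pseudocounts, scalings, filters and limma settings, and, chosen after seeing the data, leaving out each library with tissue as the only term.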

Additional observations from a re-analysis of the deposited data

Results flagged for a closer look

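For 5 of the 8 class II genes the GFP+ library was lower than the GFP- library in the FL and higher in the BM, with 1 library on each side, where 23.1% of 13609 genes (at least 1 FPKM in 1 of the 4 libraries) did so. With equal FPKM totals it was 6 of the 8 and 18.7% of 13711 genes. On the log2(FPKM + 1) scale the BM difference minus the FL difference was 1.79 for *H2-Ab1*, 2.49 for *H2-Eb1*, 1.17 for *H2-DMb1*, 2.23 for *Cd74* and 2.91 for *Ciita*. The difference between tissues was not tested. The FL values of all but *Cd74* were under 1 FPKM in both fractions.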

How the results depend on the processing

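No paired analysis was possible because each condition has 1 library and the labels give no replicate numbers to use as a block; the additive limma fit takes tissue within fraction and GFP within tissue. Of the differences of the 8 genes recomputed with a pseudocount of 0.1, equal FPKM totals or equal upper quartiles, 80 moved by less than 1.5-fold and 16 by more, and no difference past the threshold changed sign. In the FL, dropping the filter let all 8 genes be compared, and 1 was then higher and 3 lower in GFP+ cells, all under 1 FPKM, where 16.5% of all genes were higher and 38.4% lower. At a threshold of 4-fold, 2 of the 8 were higher in BM GFP+ cells, where 8.12% of all genes were. The limma tissue effect gave 288 genes (254 higher and 34 lower in BM), 0 without the trend, 80 with a pseudocount of 0.1, 189 with all genes above 0 in at least 1 library, and 176 without the GFP term. That form without the GFP term gave 0 to 95 when 1 library was left out as well. With the GFP term kept and equal FPKM totals, the split of the tissue effect was 164 higher and 52 lower. Of the 8 class II genes, 7 were called, 6 with a pseudocount of 0.1, 0 without the trend, 7 without the GFP term and 0 to 5 when 1 library was left out as well, with 0 without either BM library. With 3 libraries the lone sample of a tissue is assumed to vary like the others. Of the limma effects of single class II genes under all alternatives, 101 stayed on their side of the threshold, 27 lost their call and no called effect turned sign. The 101 include all GFP effects and the tissue effects of *Ciita*, which were not called at the outset and had no call to lose. The 27 were all tissue effects of the 7 called genes. The limma GFP effect gave 13 genes, 0 without the trend, 1 with a pseudocount of 0.1 and 4 without the tissue term, and 0 of the 8 in each. Equal FPKM totals shifted log2 values by -0.49 in BM GFP+ and 0.39 in FL GFP- cells. Under them the share of calls higher in the first group went from 40.1% to 29.3% in the FL GFP comparison, from 57.2% to 39.7% for BM against FL in GFP+ cells and from 49.02% to 30.3% in GFP- cells. Equal upper quartiles took the first share to 30.7%. In the FL, 5 of the 8 genes lay under 1 FPKM, and no counting error can be given for them.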
